A study of Danio rerio with 4 samples.

Results

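The genes described here are 5 transcription factor genes that specify vessels, blood and heart in the zebrafish embryo: etv2, fli1a, tal1, hand2 and gata4. They were taken by name, with earlier results of these data known. Each matched 1 row of the 2477 gene rows in the authors' expression table. The study sorted primordial germ cells by flow cytometry on a germline EGFP signal from AB strain embryos at 13 hours post fertilization. Embryos of the first group carried a control morpholino and those of the second a morpholino against dead end, with 2 libraries in each group. Below, levels in controls and in dead end morphants are those of the sorted cells of each group. Morpholinos are stable antisense oligonucleotides, injected into the egg, that keep a target RNA from being spliced or translated. The dead end gene encodes an RNA-binding protein on which germ cells depend. The labels give neither the mode of action of the morpholino nor the clutch of each library. The title of the series poses the question whether Dead end holds germ cells back from somatic differentiation. For these 5 genes the comparison asks how their share of the RNA in the sorted cells differed between the morpholinos. The extent of the knockdown was not tested.

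Vessels, blood and heart all arise from the lateral plate mesoderm, the sheet of mesoderm at the flanks of the somites. Within it, the ETS family factor Etv2 starts the endothelial programme and Fli1a, of the same family, acts with it and after it. The bHLH factor Tal1 (Scl) directs blood and endothelial progenitors. The bHLH factor Hand2 and the zinc finger factor Gata4 act in the heart-forming region at the front of the lateral plate. None of these genes is strictly limited to that tissue: fli1a is also used in neural crest derivatives, tal1 in some spinal cord neurons, hand2 in pharyngeal arches and fin buds, and gata4 in endoderm.

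Expression was given as FPKM, a fragment count corrected for transcript length and for the size of the library. The authors' table holds a single FPKM per gene and group, which combines both libraries. No spread between libraries can therefore be given, and the depth of the libraries is unknown. Genes were called by the authors' q, an adjusted p-value, under 0.05 together with a minimum of 1 FPKM in the higher group. Every row of the table had q under 0.05, and other genes were not analysed here. In the control group the germ cell markers nanos3 and ca15b stood at 3543 and 4484 FPKM. Other germ cell markers were lower there, down to 17.0 FPKM for tdrd6. The purity of the sort was not tested.

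All 5 regulators were higher with the dead end morpholino. They were chosen with earlier results of these data known, so their count and median are description only. Their summed level went from 9.80 FPKM in the control group to 69.2 FPKM in the dead end group. With the same call, 64.6% of all rows in the authors' deposited table were higher and 33.6% were lower, so a higher value was the more common outcome in this table. With q under 0.01, 3 of the 5 were higher, against 42.3% of rows, and 16.8% of rows were lower. Among the 4 regulators with a control value above 0, the fold of dead end over control FPKM ran from 4.85 to 13.1 with a median of 7.03. The median over the 1533 higher genes above 0 in both groups was 2.96-fold. Most of those genes had higher control levels than these 4 regulators. Among the 205 higher genes with a control level from 1 to under 5 FPKM, as these 4 have, the median was 4.43-fold. As every row had q under 0.05, this median describes the table only. The fifth gene, gata4, was listed at 0 in the control group, and no fold can be given for it. In pooled sorted cells, more cells that contain an RNA and more of that RNA per cell cannot be told apart.

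**Figure D1:**
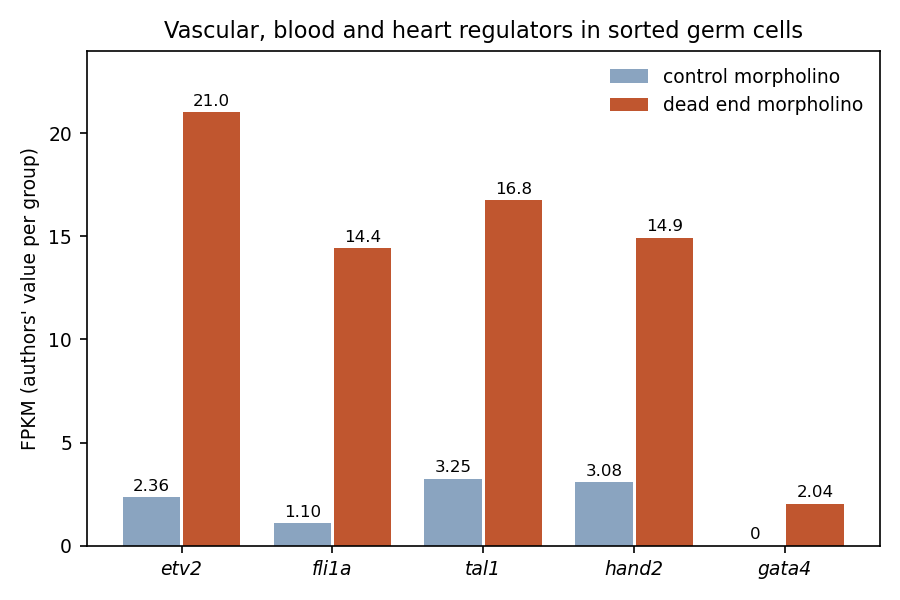
Bars give the authors' FPKM of each gene in sorted germ cells, with the control morpholino in blue and the dead end morpholino in orange; each bar is 1 value for 2 libraries, so there is no error bar. The 4 genes etv2, fli1a, tal1 and hand2 sit between 1.103 and 3.25 FPKM in the control group and between 14.4 and 21.0 FPKM in the dead end group, while gata4 goes from a listed 0 to 2.04 FPKM.

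Of the ETS factor genes, etv2 (ENSDARG00000053868, chromosome 16, 42058780 to 42063826, positions taken as GRCz10) was at 2.36 FPKM in the control group and 21.0 FPKM in the dead end group in the authors' deposited table. That is an 8.89-fold rise, with an authors' p of 0.0014 and q of 0.0142 in the authors' deposited table. In the dead end group etv2 was the highest of the 5 genes. The later ETS factor gene fli1a (ENSDARG00000054632, chromosome 18, 48429317 to 48493178) was at 1.103 FPKM in the control group and 14.4 FPKM in the dead end group. Its 13.1-fold rise had a q of 0.00534 in the authors' deposited table and was the steepest of the 4 that have a fold. The control level of fli1a was the lowest of these 4, so its fold is a ratio to a low value. With 1 added to each FPKM, the log2 change was 2.88 for fli1a and 2.71 for etv2. Per transcript length, etv2 was 2.14 times as abundant as fli1a in controls and 1.46 times as abundant in dead end morphants.

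The next row to etv2 along chromosome 16 is its relative fli1b, the second zebrafish copy of FLI1, at a gap of 4.13 kb. The authors' deposited table listed fli1b at 0 FPKM in the control group and gave it 0.848 FPKM in the dead end group (q = 0.00191). It therefore stayed under the minimum of 1 FPKM and was not called. In the dead end group fli1a was 17.0 times as abundant as fli1b. The loci of all 5 regulators lie on different chromosomes, and none overlaps another row of the table.

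Of the bHLH factor genes, tal1 (ENSDARG00000019930, chromosome 22, 16509304 to 16519060) was at 3.25 FPKM in the control group and 16.8 FPKM in the dead end group. The rise was 5.16-fold, and its q of 0.00259 in the authors' deposited table was the smallest of the 5. The gene hand2 (ENSDARG00000008305, chromosome 1, 37473968 to 37475834) was at 3.08 FPKM in the control group and 14.9 FPKM in the dead end group. Its 4.85-fold rise had the largest q of the 5, at 0.0253 in the authors' deposited table. The blood regulator and the heart regulator thus had nearly the same values: tal1 stood at 1.05 times the level of hand2 in controls and at 1.12 times in dead end morphants.

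The zinc finger gene gata4 (ENSDARG00000098952, chromosome 20, 53146698 to 53162461) was listed at 0 FPKM in the control group and at 2.04 FPKM in the dead end group, with q = 0.00381 in the authors' deposited table. A listed 0 can be a failed estimate as well as a lack of reads. Among the 66 called genes listed at 0 in the control group, gata4 ranked 38 by its dead end level, where the range was 1.02 to 27.8 FPKM and the median 2.20 FPKM. Its close relative gata5, which also acts in heart and endoderm, was detected in both groups, at 7.78 and 24.8 FPKM (a 3.20-fold rise with q of 0.0112 by the authors' deposited table). In dead end morphants gata5 was 12.2 times as abundant as gata4. The nearest row to gata4, 12.6 kb away, was the squalene synthase gene fdft1, a called gene that fell, with 25.8 FPKM in the control and 1.73 FPKM in the dead end group.

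The order of the listed levels differed between the groups, though not beyond the implied error given below. In controls it ran tal1, hand2, etv2, fli1a and gata4, and in dead end morphants etv2, tal1, hand2, fli1a and gata4. The 4 genes other than gata4 spanned a 2.95-fold range of FPKM in controls and a 1.46-fold range in dead end morphants. No error was computed for these ranges. An error of each fold can be had from the authors' test statistic if that statistic is the log ratio divided by its standard error, which the sources used here do not state. On that assumption the log2 fold was 3.71 ± 1.27 (implied standard error) for fli1a, 3.15 ± 1.095 for etv2, 2.37 ± 0.770 for tal1 and 2.28 ± 0.950 for hand2. The implied 95% intervals ran from 2.34-fold to 73.2-fold for fli1a and from 2.01-fold to 39.4-fold for etv2. They ran from 1.81-fold to 14.7-fold for tal1 and from 1.33-fold to 17.6-fold for hand2. All 4 overlap. All 4 also lie above a fold of 1, which adds little, since every row of the table had q under 0.05.

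Neighbours in the order of the folds did not differ beyond this error. The log2 fold of fli1a exceeded that of etv2 by 0.56, with an implied 95% interval of -2.73 to 3.84. The difference between etv2 and tal1 was 0.78 (-1.84 to 3.41) and that between tal1 and hand2 was 0.09 (-2.31 to 2.49). Even the steepest and the shallowest, fli1a and hand2, differed by 1.43 with an interval of -1.67 to 4.54. The change in the order of levels came from etv2 passing tal1 and hand2. The log2 fold of etv2 exceeded that of hand2 by 0.88 (-1.97 to 3.72), so this change was within the error. The implied errors are rough, because 171 of the 2245 rows with a statistic had one under 1.96 in size although the authors' q was under 0.05. In those rows the implied interval includes a fold of 1, so it is wider than the authors' call allows. The implied errors of the 4 regulators may likewise be too wide, which was not tested.

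**Figure D2:**
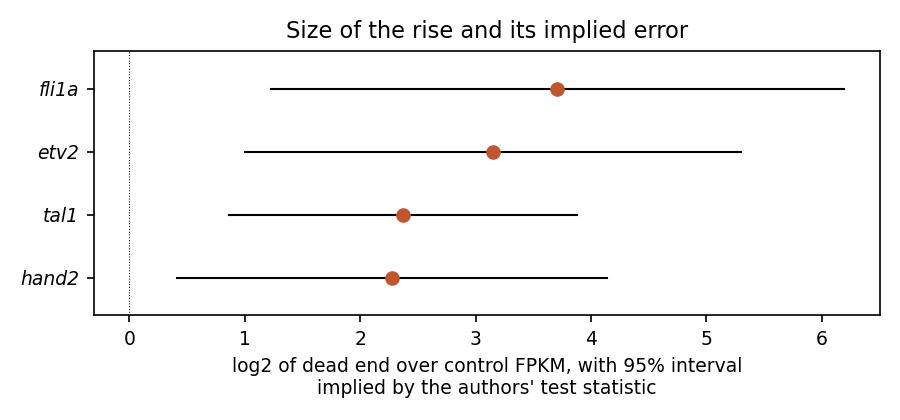
Points give the log2 of dead end over control FPKM for fli1a, etv2, tal1 and hand2, and lines the 95% interval implied by the authors' test statistic. The points fall from 3.71 to 2.28, all 4 intervals lie above 0, and each overlaps every other. Every row of the table had q under 0.05, so intervals above 0 add little.

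Set against the 1599 higher genes of the table, the 5 regulators were weakly expressed. The control values of tal1, hand2, etv2 and fli1a exceeded those of 13.0%, 12.6%, 9.69% and 5.82% of the higher genes, whose median control level was 15.2 FPKM. Even in dead end morphants they stayed low: etv2 exceeded 21.8% of the higher genes, tal1 16.0%, hand2 13.4% and fli1a 12.9%, against a median of 48.8 FPKM. Their folds stood further up. By fold, fli1a ranked 20, etv2 79, tal1 261 and hand2 287 among the 1533 higher genes with both values above 0. Among the higher genes, those weakly expressed in controls had larger folds. The 205 with a control level from 1 to under 5 FPKM had a median rise of 4.43-fold, and the smallest was 2.08-fold. Every row had q under 0.05, so weakly expressed genes with small rises may be missing, and these values describe the table only. All 4 regulators with a fold belong to this range of 1 to under 5 FPKM and lie above its median. The 5 genes were chosen with earlier results of these data known, so their ranks are description only.

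**Figure D3:**
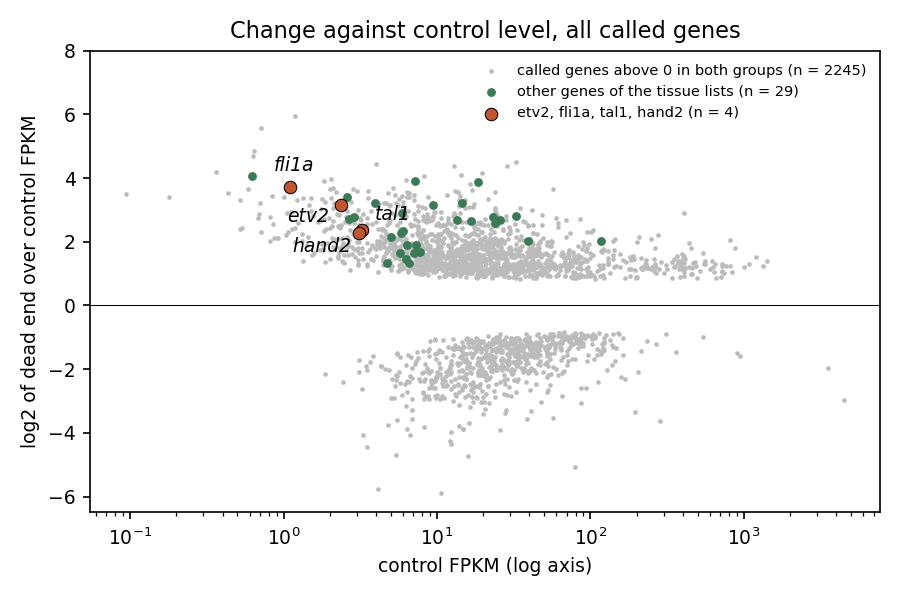
Each point is a called gene above 0 in both groups, with its control FPKM on a log axis and the log2 of dead end over control FPKM on the other axis. The 4 regulators (orange) lie at the left of the cloud, between 1.103 and 3.25 control FPKM, and the 29 other called genes of the tissue lists (green) all lie above 0 and mostly further right.

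Rows with nearly the same pair of values were found by distance in the plane of log2 control and log2 dead end FPKM, over the 2 groups. Closest to etv2 were foxd2, a forkhead factor gene (2.33 and 19.4 FPKM in the authors' deposited table, distance 0.114), rfx4 and the FGF ligand gene fgf17. Closest to fli1a were aff3, rbfox1l and the POU factor gene pou3f2b, at distances of 0.275 to 0.439. The nearest rows to tal1 were b3gnt7l, quo and nhsa. The nearest to hand2 were tiam1b, nhsa and tal1 itself, the last at a distance of 0.183. Closest to gata4 among genes listed at 0 in controls were nfil3-4, the sarcoglycan gene sgca and lyve1b, a marker of lymphatic and venous endothelium, at 1.98, 1.98 and 2.12 FPKM in dead end morphants in the authors' deposited table.

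Other genes of the same tissues were looked up from lists of vascular, blood, heart and lateral plate genes. These lists were chosen with earlier results of these data known, so their counts and medians are description only. Of 128 distinct genes in these 4 lists, 36 had a row in the authors' deposited table, and the others were not analysed here. Called genes numbered 35, and all 35 were higher, where 64.6% of all rows were. The median rise was 6.35-fold over the 33 with both values above 0, and the same over the 29 that are not among the 5 regulators. Of these 29, 3 had a larger fold than fli1a and 11 a smaller fold than hand2, while 22 were more abundant in dead end morphants than etv2.

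The vascular list had 12 of 40 genes with a row and 11 called, all higher, with a median rise of 9.13-fold over 10 genes. Besides fli1a, the largest rises were those of a forkhead gene and the apelin receptor genes. The receptor gene aplnrb, needed for the movement of heart and vessel progenitors, went from 7.19 to 109 FPKM (15.2-fold) and its copy aplnra from 14.5 to 135.6 FPKM (9.38-fold), each with q = 0.00107 in the authors' deposited table. The forkhead gene foxc1a, which acts in somites and vessels, went from 18.6 to 275 FPKM (14.8-fold, with q of 0.00107 by the authors' deposited table) and was 13.1 times as abundant as etv2 in dead end morphants. The arterial Notch ligand gene dll4 was listed at 0 and at 2.49 FPKM in the authors' deposited table. Smaller rises in the authors' deposited table were those of notch1b (2.501-fold, q = 0.00856), a Notch receptor gene, and nr2f2 (3.12-fold, q = 0.00191), a nuclear receptor gene of veins.

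The blood list gave a single row of 37 genes, that of tal1. The globin genes, gata1a, spi1b, runx1 and the other genes of red and white blood cells were not analysed here. In the short marker lists of formed tissues, rows were found for 0 of 8 endothelial markers such as kdrl and cdh5, 0 of 9 of primitive red cells, 0 of 7 of primitive myeloid cells and 0 of 7 of heart muscle such as myl7 and nkx2.5. The levels of these listed markers are therefore not described, while lyve1b and the cardiac actin gene actc1a, which are in none of these marker lists, had rows.

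The heart list had 13 of 34 genes with a row, all called and all higher, with a median rise of 6.29-fold over 12 genes. Besides aplnrb, the largest were the hyaluronan synthase gene has2, needed for the cardiac jelly (2.60 against 27.6 FPKM, a 10.6-fold rise), and the FGF ligand gene fgf8a (5.93 against 44.3 FPKM, a 7.46-fold rise), and the authors' deposited table gave both a q of 0.00107. The apelin receptor ligand gene apela rose 6.93-fold and the cardiac actin gene actc1a, which skeletal muscle also uses, 6.49-fold. The T-box gene tbx1 of the pharyngeal and second heart field mesoderm rose 6.61-fold with a q of 0.0251 in the authors' deposited table. The LIM homeobox gene isl1, also a motor neuron gene, rose 2.53-fold and had a q of 0.0495 in the authors' deposited table, close to the limit of the call.

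The lateral plate list had 19 of 36 genes with a row, all called and all higher, with a median rise of 4.99-fold over 18 genes. The mesenchyme homeobox gene prrx1a went from 0.617 to 10.4 FPKM (16.8-fold, with q of 0.0187 by the authors' deposited table). Its fold is a ratio to a low control value. The T-box gene tbx6l (tbx16l), which acts in ventral and paraxial mesoderm, rose 8.84-fold, and the ventral repressor gene vox 7.08-fold, with 32.9 and 233 FPKM, and the authors' deposited table gave each a q of 0.00107. The intermediate mesoderm and pronephros genes lhx1a, pax2a, osr1 and pax8 rose 6.83-fold, 5.10-fold, 3.74-fold and 3.14-fold. Many of these genes also serve tissues outside the lateral plate.

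**Figure D4:**
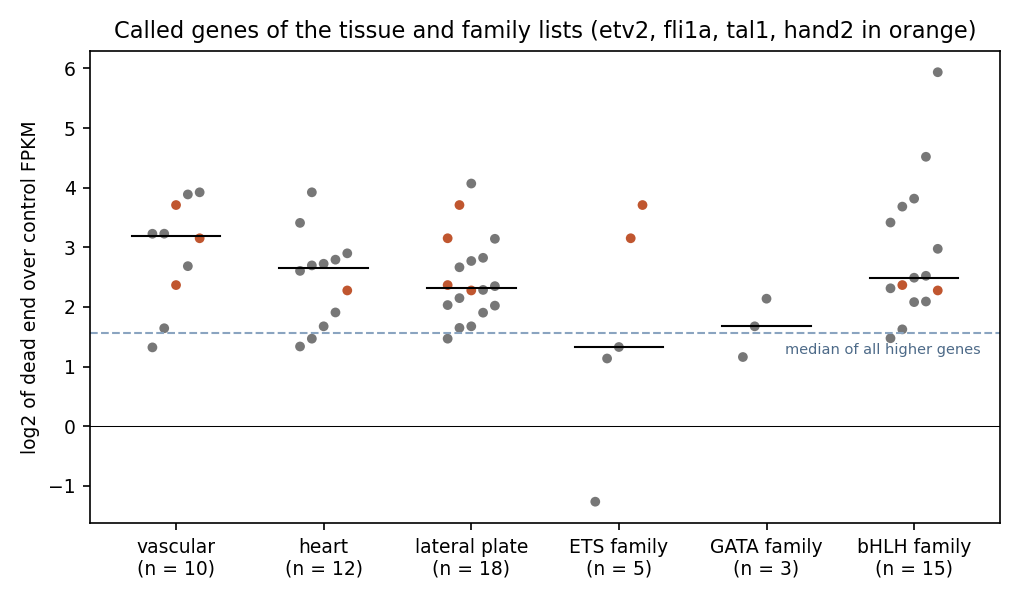
Each point is a called gene with both values above 0, placed by list, with the log2 of dead end over control FPKM on the vertical axis; bars mark list medians, and etv2, fli1a, tal1 and hand2 are orange. In the vascular, heart and lateral plate lists every point lies above 0, and the ETS family list holds 1 point below 0, elf2a. The dashed line is the median of the 1533 higher genes above 0 in both groups.

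Within their own protein families, the regulators that have a fold were placed by it alone. The error of these differences was not computed. The family lists too were chosen with earlier results of these data known, so their counts are description only. For the family counts below, 64.6% of all rows were higher and 33.6% were lower. The median rise over all higher genes above 0 in both groups was 2.96-fold. Of 29 ETS family genes, 6 had a row in the authors' deposited table, 4 of the 5 called were higher and 1 was lower. The listed folds of fli1a and etv2 were larger than those of gabpa and etv5b. The factor gene of nuclear-encoded mitochondrial genes, gabpa, rose 2.51-fold, from 28.8 to 72.4 FPKM. The FGF signalling target etv5b rose 2.20-fold, from 93.4 to 205 FPKM. The ETS gene elf2a fell, with 32.0 and 13.3 FPKM and a q of 0.00765 by the authors' deposited table. The GATA family list, which includes GATA cofactor genes, had 4 of 13 with a row, all higher: trps1 rose 4.40-fold (q = 0.00381), gata5 3.20-fold and gata3 2.24-fold (q = 0.0357) in the authors' deposited table. The bHLH list, which includes related HLH genes such as id1 and id3, had 16 of 48 with a row. All 16 were higher, by a median of 5.62-fold over 15 genes. Of the other 13 genes of that list with a fold, 8 had a larger one than tal1. They were led by the paraxial mesoderm genes mespab (61.3-fold), msgn1 (22.9-fold) and myf5 (14.1-fold). The control level of mespab was 1.18 FPKM, so its fold is a ratio to a low value. The 4 that rose less than hand2 were id1 (4.26-fold), neurog1 (4.23-fold), id3 (3.08-fold) and tcf3a (2.78-fold), and the paraxial mesoderm gene tcf15 (4.97-fold) lay between hand2 and tal1. The pancreas and hindbrain bHLH gene ptf1a, like gata4, was listed at 0 in controls, and it stood at 2.90 FPKM in dead end morphants in the authors' deposited table.

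The authors also deposited an enrichment test of gene ontology terms on 1204 uploaded higher genes against 27187 zebrafish genes, corrected by Bonferroni over 3142 terms. Of its 374 listed terms, 23 named heart, vessel, endothelium or blood. In the table for lower genes 0 of 21 terms named them. With so few terms, these counts show no contrast between higher and lower genes. Heart development held 63 genes where 17.9 were expected (3.52-fold, corrected p = 1.31e-13 in the authors' deposited table). Vasculature development held 60 where 16.5 were expected (3.63-fold, corrected p = 1.87e-13 in the authors' deposited table), and hemopoiesis 50 where 13.5 were expected (3.71-fold, corrected p = 3.27e-11 in the authors' deposited table). Among narrower terms, the authors' deposited table gave 11 genes for endothelial cell differentiation (8.01-fold, corrected p = 0.000709), 12 for vasculogenesis (6.45-fold, corrected p = 0.00196) and 8 for heart formation (9.51-fold, corrected p = 0.00913). Folds below that of vasculature development were given for angiogenesis (3.18-fold) and blood vessel morphogenesis (3.47-fold) in the authors' deposited table. For erythrocyte differentiation 17 genes were found where 3.14 were expected (corrected p = 0.000122 in the authors' deposited table). The terms are nested and share genes, and the deposited file does not name the genes behind each count. By corrected p, heart development ranked 118 among the 374 terms.

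Genes of other cell types differed between the groups as well. Their marker lists were chosen with earlier results of these data known, so the counts below are description only. Of 12 germ cell markers, 9 had a row and all 9 were lower, where 33.6% of all rows were. Their summed level was 10522 FPKM in the control group and 2355 FPKM in the dead end group. Of 7 paraxial mesoderm markers, 7 were higher, where 64.6% of all rows were. They summed to 112 FPKM in the control group and 2143 FPKM in the dead end group, with a median rise of 20.9-fold. Genes with rows were 6 of 6 for neural plate (91.2 to 763 FPKM) and 3 of 4 for endoderm (18.3 to 116 FPKM). Rows were also found for 3 of 5 notochord genes (35.6 to 280 FPKM) and 3 of 5 epidermis genes (28.1 to 174 FPKM). All of these rows were higher, and listed genes without a row were not analysed here. Among all these markers, sox32 of the endoderm list was the gene listed at 0 in controls. In dead end morphants nanos3 was still 43.1 times as abundant as etv2, and msgn1 35.8 times. The part of these other cell types in the values of the 5 regulators was not tested.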

How the data were processed

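Polyadenylated RNA of sorted germ cells was sequenced from 4 libraries, 2 per morpholino, with a directional kit, per the labels' protocols. Tools named in the submitters' processing notes are Cufflinks 2.2.1 with Cuffdiff, STAR 2.5.2b and cutadapt 1.10, and both GRCz10 and Zv9 appear there as builds. Positions were read as GRCz10, since chromosome 4 reaches 74754136, beyond its end in Zv9. The authors deposited 1 FPKM per gene and group, their log2 ratio, a test statistic (a score), and p-values and q-values. The ratio (fold) of observed to expected genes in the term tables was computed by the authors with PANTHER (release 20160715), per the file headers. Other numbers there are counted and expected genes per term and corrected p-values. Whether reads were counted by strand is not stated there.

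Folds and medians were computed from the FPKM values with pandas 2.3.3, and the deposited log2 ratio matched within 1.34e-05. Genes were called at q under 0.05 and a minimum of 1 FPKM in the higher group, keeping 2431 of 2477 rows. As there is 1 value per group, no own test was run. Counting was tested on simulated data. List genes were matched by symbol (100 entries) or by synonym (2). A rule named the 5 regulators, up to 3 further genes per list, genes listed at 0 and the 3 rows nearest to each regulator. Other genes were named after their values were seen, and the ontology terms were picked by words in their names after the table had been seen. The 5 genes, the lists and the rule were chosen with earlier results of these data known.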

Additional observations from a re-analysis of the deposited data

How the results depend on the processing

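With the calls at q under 0.01 (1047 higher and 416 lower rows in the authors' deposited table), 3 of the 5 regulators remained called as higher, fli1a, tal1 and gata4, while etv2 (2.71 in log2 of FPKM + 1, q = 0.0142) and hand2 (1.97, q = 0.0253) did not. The same threshold left 12 of 19 higher lateral plate genes and 2 of 4 GATA family genes, where it left 1047 of all 1599 higher rows. A minimum of 5 FPKM ended the call of gata4 (1.61), and no minimum and pseudocounts of 0.1 and 0.5 left the direction and call of every regulator as they were. The size of the gata4 change follows the pseudocount, since its control value is listed at 0: 2.35 at 0.5 and 4.42 at 0.1. Matching by table symbol alone was run for the 4 tissue lists and kept each count within 1.5 times. Without genes that another of the 4 tissue lists holds, 7 vascular, 0 blood, 8 heart and 12 lateral plate genes were higher. No result reversed in direction. None of these settings could reverse one, since they change only thresholds, the pseudocount or the genes of a list. The calls rest on the authors' q and the FPKM, which a pseudocount does not touch. No paired analysis was possible because the table combines the libraries of each group, and for the same reason no library could be left out. The FPKM values do not give the depth, so a value listed at 0 has no upper limit here.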
